A study of Mus musculus with 4 samples.

Results

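The genes described here were the chemokines, small secreted proteins that attract leukocytes, and their receptors, in single cells of the developing mouse cerebellum. Every gene entry whose symbol held Ccl, Cxcl, Ccr or Cxcr followed by a digit was taken, together with Cx3cl1, if it had at least 10 unique molecular identifiers (UMIs, each standing for 1 captured transcript) over the 4 libraries. This gave 44 of 60 such entries among 32285 genes: 31 ligands, of which 20 were CC, 10 CXC and 1 CX3C, and 13 receptors, of which 8 were CC and 5 CXC. Of the 16 entries left out, 10 had 0 UMIs and 6 had 1 to 9, the highest being Ccr4 with 9 and Cxcl5 with 8. Just inside the limit stood Cxcl13 with 21 UMIs and Ccr3 with 31. Of the 44, 39 had at least 100 UMIs in cells that could be given a class. The 5 others were Cxcl3 (46 UMIs), Cxcl13 (18), Ccl26 (45), Ccl22 (59) and Ccr3 (28).

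Chemokines bind G protein-coupled receptors on the cells they attract, and the arrangement of cysteines near the amino end gives the CC, CXC and CX3C families their names. Most CC ligands draw monocytes, macrophages and lymphocytes, CXC ligands that carry the ELR motif draw neutrophils, and Cxcl9 and Cxcl10 are induced by interferon and bind Cxcr3. In the developing cerebellum, Cxcl12 from the meninges acts on Cxcr4 of granule cell progenitors and holds them in the outer layer where they divide. Microglia are the macrophages of the brain parenchyma, and border macrophages are those of the meninges, perivascular spaces and choroid plexus.

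Whole cerebella were dissociated with trypsin after the meninges had been taken off, and were profiled with 10x Genomics droplet single-cell RNA sequencing. There was 1 library each of wild type (WT) and of mice labelled Eftud2 cKO, a conditional knockout, at postnatal day 10 (P10) and at postnatal day 14 (P14). Eftud2 encodes a GTPase of the spliceosome, and the series title places the deficiency in Purkinje cells, the neurons that carry the output of the cerebellar cortex. The Cre line, the number of animals per library, their sex and the strain are not given in the sources used here. Where 4 values follow each other they stand for P10 WT, P10 cKO, then P14 WT, P14 cKO.

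The libraries held 91091692 to 158017834 UMIs, and 6308 to 15395 cells each passed the filters. Cell Ranger 7.1.0 wrote both P14 matrices, while version 5.0.0 wrote that of P10 WT and 7.0.1 that of P10 cKO, so at P10 genotype and software version cannot be told apart. Between 7 and 76 cell barcodes were shared by any pair of libraries. Cells were classed by marker genes that are not chemokines, and 11 of 21 classes had at least 20 cells in every library and were compared. Although the meninges had been removed, border macrophages made up 9.07%, 1.97%, 0.390% and 2.25% of cells and fibroblasts 8.07%, 1.65%, 1.64% and 1.74%. Only 1, 0, 1 and 0 cells could be classed as Purkinje cells, so the deletion could not be checked in the cells that the title names. Over whole libraries Eftud2 stood at 51.2, 55.6, 47.3 and 44.8 CPM (UMIs of a gene scaled to a total of 1000000 UMIs). Each of the 11 classes had 1 to 8 of its own markers among its 10 leading genes, and in fibroblasts and oligodendrocyte precursors 1 marker of another class was among them. The chemokines Ccl2, Ccl7 and Ccl24 were themselves among the leading genes of border macrophages, and Ccl4 among those of microglia.

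Each level is in CPM: a gene's UMIs were summed over the class within 1 library and scaled to that total. Classes were compared with edgeR's quasi-likelihood F test on these sums with the library as a block, and p-values were adjusted over all genes tested. Intervals are 95% intervals for counting error only. Genes were ranked by mean level over the libraries among the 11 compared classes only, so smaller classes could not come first. Border macrophages were highest for 12 of the 39 genes, microglia for 7, B cells for 7 and fibroblasts for 5. GABAergic interneurons were highest for 3, astroglia for 2, endothelial cells for 2 and granule neurons for 1.

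**Figure D1:**
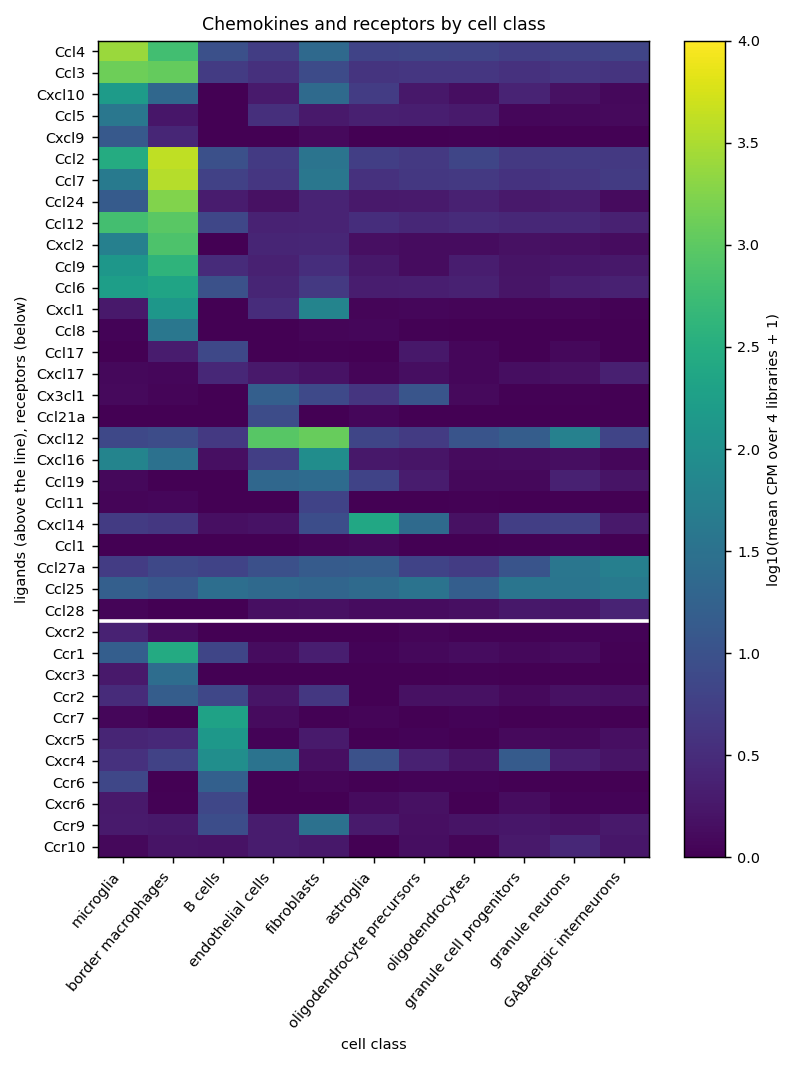
Level of chemokine genes in 11 cell classes, as log10 of 1 plus the mean CPM over 4 libraries, with ligands and receptors as rows and classes as columns. Most bright fields lie in the columns of border macrophages and microglia, while Cxcl12 is bright in fibroblasts and endothelial cells, Cxcl14 in astroglia and Ccr7 in B cells.

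Border macrophages were the main source of a block of CC ligands. Ccl2, which attracts monocytes through Ccr2, stood at 4573, 2738, 4852 and 4153 CPM in border macrophages and at 202, 154, 375 and 436 CPM in microglia. All 4 border macrophage values lay above all 4 microglial values, and the log2 difference of microglia from border macrophages was -3.93 ± 0.19 (SE, adjusted p = 2.7e-08). Ccl7, a close relative that shares Ccr2, stood at 4033, 2617, 4238 and 3645 CPM in border macrophages against 73.4, 15.1, 22.8 and 53.9 CPM in microglia (log2 difference -6.64 ± 0.30, adjusted p = 1.4e-08). Both genes were on in the same cells. After every cell had been thinned to 2000 UMIs, 86.9% to 89.3% of the border macrophages with a Ccl2 UMI also had one of Ccl7, against 11.5% to 26.3% of those without Ccl2.

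Ccl24, an eosinophil attractant that binds Ccr3, showed the same split, with 1382, 975, 2541 and 2136 CPM in border macrophages and 32.1, 8.76, 5.23 and 6.04 CPM in microglia (log2 difference -7.31 ± 0.51, adjusted p = 4.4e-07). Of all UMIs in cells that passed the filters, border macrophages held 84.2% for Ccl7 and 87.0% for Ccl24, as means over the libraries. Of Ccl2 they held 79.8%, 85.0%, 46.8% and 57.1%, the lower shares being those at P14. Ccl8, another monocyte attractant, was lower and confined to fewer cells: 19.3, 67.7, 13.6 and 48.7 CPM in border macrophages, from 80, 24, 3 and 11 cells, and 0 to 2 UMIs in microglia (log2 difference -7.59 ± 0.39, adjusted p = 3.2e-08). Ccl26, which like Ccl24 is a Ccr3 ligand, had 0, 17, 13 and 15 UMIs in border macrophages and 0 in the microglia of every library. Set against a floor of 3 counts in microglia, its level was at least 30.1-fold higher in border macrophages.

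Ccl12, Ccl9 and Ccl6 were shared more evenly by the 2 macrophage classes. Ccl12, a mouse monocyte attractant, stood at 1048, 676, 1079.6 and 1039 CPM in border macrophages and 606, 431, 679.6 and 790.4 CPM in microglia. Border macrophages were higher in each library, but the ranges overlapped (log2 difference -0.66 ± 0.11, adjusted p = 5.0e-04). Ccl9, a Ccr1 ligand, stood at 351, 311, 518 and 418 CPM in border macrophages and 151, 97.9, 139 and 135 CPM in microglia, and the log2 difference was -1.63 ± 0.12 (adjusted p = 7.9e-07). Ccl6, another Ccr1 ligand, had 239, 192, 228 and 189 CPM in border macrophages and 191, 152, 134 and 227 CPM in microglia, a difference that did not pass the test (-0.31 ± 0.15, adjusted p = 0.15). Without the P14 cKO library it did (-0.47, adjusted p = 0.012).

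**Figure D2:**
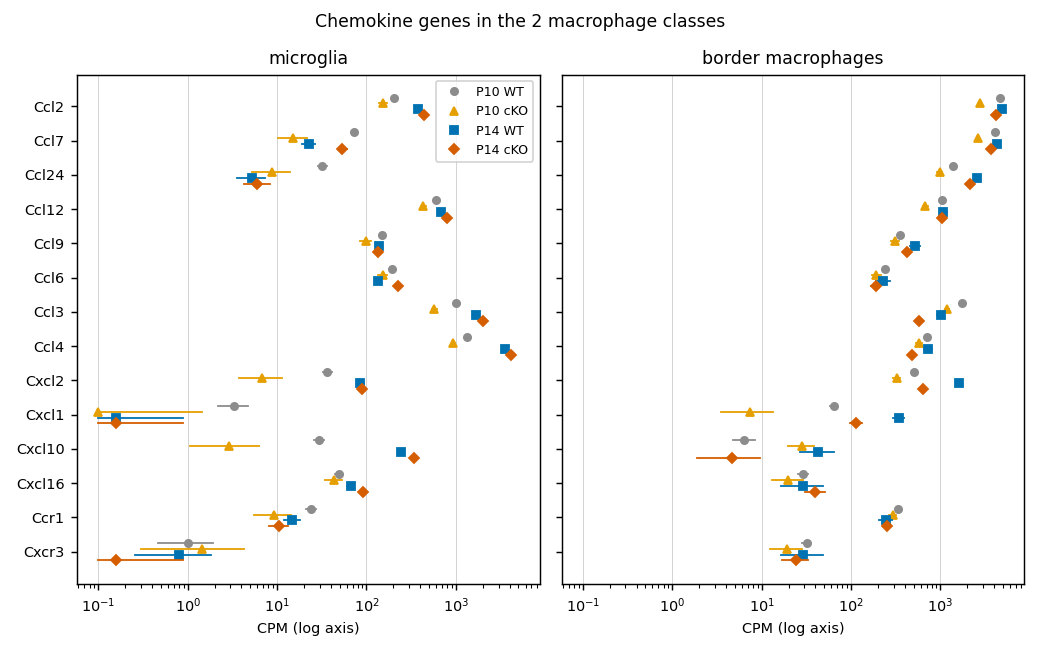
Levels in CPM on a log axis of chemokine genes in microglia and border macrophages, with 1 point per library and its 95% counting interval. Values under 0.1 CPM are drawn at 0.1. Ccl2, Ccl7, Ccl24, Ccr1 and Cxcr3 lay higher in the border macrophages of all 4 libraries, and Ccl4 higher in the microglia of all 4.

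Microglia were the main source of Ccl4, an attractant of monocytes and T cells. They held 55.1%, 66.7%, 88.6% and 83.8% of its UMIs in cells that passed the filters. Ccl4 stood at 1338, 937, 3537 and 4160 CPM in microglia, compared with 708, 576, 721 and 483 CPM in border macrophages. The microglial values exceeded all border macrophage values, and the log2 difference was 1.71 ± 0.33 (adjusted p = 0.0020). Within microglia both P14 libraries lay above both P10 libraries, a contrast of ages that was not tested. Thinned to 2000 UMIs, 38.7%, 32.9%, 62.7% and 76.1% of microglia had a Ccl4 UMI, against 0.987%, 0.0333%, 0.765% and 2.09% of granule neurons. The unthinned shares in microglia came to 47.6%, 42.8%, 66.8% and 80.9% (median depths 7261, 11300, 8808 and 16610 UMIs), and in granule neurons 3.70%, 0.485%, 2.61% and 9.96%, at 6926.5, 9587.5, 6868.5 and 11579 UMIs.

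Ccl3, which binds Ccr1 and lies beside Ccl4 on chromosome 11, was shared by both classes. It stood at 996, 575, 1663 and 1995 CPM in microglia, compared with 1760, 1182, 1004 and 573 CPM in border macrophages. It was higher in border macrophages in both P10 libraries and higher in microglia in both P14 libraries, and over the 4 libraries the difference did not pass the test (log2 0.11 ± 0.38, adjusted p = 0.87). The 2 genes went together in cells: in microglia thinned to 2000 UMIs, 66.9%, 66.7%, 88.5% and 93.2% of Ccl3-positive cells had a Ccl4 UMI, against 20.1%, 17.2%, 37.5% and 48.9% of Ccl3-negative cells. In border macrophages the same shares were 34.9%, 33.8%, 45.5% and 41.2%, against 10.8%, 11.4%, 16.0% and 18.6%.

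Ccl5, a ligand best known from T cells, had 17, 2, 485 and 436 UMIs in microglia, from 9, 2, 16 and 25 cells. Levels were 1.93, 0.974, 76.8 and 69.3 CPM, with 319 of the 485 UMIs at P14 WT in 1 cell and 117 of the 436 at P14 cKO in another. Border macrophages had 2, 0, 0 and 4 UMIs (log2 difference 4.67 ± 0.40, adjusted p = 2.7e-06). T and NK cells, too few to be compared, held 142, 65, 868 and 6 UMIs.

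Ccl2, Ccl7, Ccl11, Ccl12 and Ccl8 lie in this order within 1 stretch of chromosome 11 (GRCm38, GENCODE vM21: chr11:82035571-82037453 for Ccl2 to chr11:82115185-82116799 for Ccl8, all on the plus strand). Within it the compared classes differed. Ccl2, Ccl7, Ccl12 and Ccl8 were highest in border macrophages, whereas Ccl11, the eosinophil attractant eotaxin, was highest in fibroblasts at 5.03, 6.10, 7.84 and 2.62 CPM. Farther along, Ccl5, Ccl9, Ccl6, Ccl3 and Ccl4 lie within a second stretch (chr11:83525778-83530518 on the minus strand for Ccl5 to chr11:83662584-83664683 on the plus strand for Ccl4). Among the compared classes, Ccl9 and Ccl6 were highest in border macrophages and Ccl3, Ccl4 and Ccl5 in microglia.

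The CXC ligands of the macrophages divided between neutrophil attractants and interferon-induced genes. Cxcl1, Cxcl2 and Cxcl10 lie on chromosome 5, and the 250 bases before their start sites are shown because each carries the NF-kB motif. The sequences are from RefSeq on GRCm38.p6, 5′ to 3′ in the direction of each gene: chr5:90890995-90891244, plus strand, for Cxcl1, chr5:90903649-90903898, plus strand, for Cxcl2, and chr5:92348890-92349139, minus strand, for Cxcl10. Capitals mark matches to the 10-base NF-kB consensus on either strand and, in Cxcl10 alone of these 3, to GAAANNGAAA, the core of the interferon-stimulated response element.
Cxcl1: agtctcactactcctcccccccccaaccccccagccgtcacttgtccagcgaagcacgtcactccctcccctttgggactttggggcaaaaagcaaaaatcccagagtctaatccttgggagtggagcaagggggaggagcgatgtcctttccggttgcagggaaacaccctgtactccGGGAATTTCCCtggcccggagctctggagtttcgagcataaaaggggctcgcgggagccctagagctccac
Cxcl2: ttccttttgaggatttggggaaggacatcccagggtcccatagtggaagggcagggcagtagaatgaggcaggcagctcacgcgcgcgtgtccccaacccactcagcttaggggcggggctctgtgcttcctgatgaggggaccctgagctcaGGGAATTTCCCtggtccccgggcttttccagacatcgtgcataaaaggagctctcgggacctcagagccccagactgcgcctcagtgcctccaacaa
Cxcl10: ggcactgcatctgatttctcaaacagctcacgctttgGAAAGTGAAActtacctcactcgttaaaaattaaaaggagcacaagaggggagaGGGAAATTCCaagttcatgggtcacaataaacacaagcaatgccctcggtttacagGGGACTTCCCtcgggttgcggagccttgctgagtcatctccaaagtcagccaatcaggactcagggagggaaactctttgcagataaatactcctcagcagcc
Cxcl1 and Cxcl2 share a near-palindrome that matched the NF-kB consensus on both strands in overlapping frames. It lay 71 to 61 bases before the start in Cxcl1 and 97 to 87 in Cxcl2. Cxcl10 had a pair of separate NF-kB matches, 159 to 150 and 103 to 94 bases before its start, and the GAAANNGAAA match, read GAAAGTGAAA, lay 213 to 204 before it. Windows of 250 bases before to 50 after the start were searched on both strands for 31 of the 44 genes, Ccl2, Ccl4, Ccl7 and Ccl24 being among those with no matched window. The NF-kB consensus occurred in 1480 of 32851 promoters (4.51%) and in 8 of the 31 genes, the others being Cxcl3, Ccl9, Ccl27a, Ccr3 and Ccr6. GAAANNGAAA occurred in 1131 promoters (3.44%) and in 3 of the genes, Cxcl10, Ccl19 and Cxcl14. The 31 genes had 35 promoters, and a gene counted if any of its promoters matched. The percentages are of promoters, so the counts of genes are not in the same unit. Both motifs were chosen after the levels had been seen, and a match is a description, not a binding site.

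Cxcl2, a neutrophil attractant acting on Cxcr2, stood at 510, 324, 1608 and 632 CPM in border macrophages and 36.6, 6.82, 85.5 and 88.7 CPM in microglia (log2 difference -3.91 ± 0.29, adjusted p = 8.3e-07). The lowest border macrophage value was above the highest microglial one. Cxcl1, its neighbour with the same receptor, stood at 63.8, 7.36, 341 and 114 CPM in border macrophages and at 28.0, 8.32, 145 and 74.5 CPM in fibroblasts. It was higher in border macrophages than in microglia in every library (log2 difference -6.59 ± 0.61, adjusted p = 5.5e-06). Within border macrophages the WT value was the higher one at both ages for each gene.

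Cxcl10, an attractant of activated T cells, had 29.5, 2.92, 244 and 343 CPM in microglia, whereas border macrophages had 6.38, 28.0, 42.9 and 4.67 CPM. Microglia were higher in 3 of 4 libraries and lower in P10 cKO. The difference was called by edgeR (log2 2.39 ± 0.75, adjusted p = 0.030) but not by DESeq2 (adjusted p = 0.22), and the edgeR call was lost without P10 WT (adjusted p = 0.069), without P14 WT (0.12) or without P14 cKO (0.063). At 2000 UMIs per cell 1.38%, 0.588%, 9.95% and 17.2% of microglia had a Cxcl10 UMI, against 0.0333% to 0.0759% of granule neurons. The unthinned shares of microglia were 2.96%, 2.78%, 15.1% and 25.1%. Cxcl9, which is induced by interferon gamma, had 0, 0, 15 and 291 UMIs in microglia, from 0, 0, 1 and 6 cells, and 254 of the 291 came from 1 cell. It was called higher in microglia (log2 difference 2.81 ± 0.47, adjusted p = 0.0013). Without P14 cKO it had too few UMIs to be tested, so the call rests on that library, and DESeq2 did not make it (adjusted p = 0.85).

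Receptors also separated the 2 macrophage classes. Ccr1, which binds Ccl3 and the Ccl6 and Ccl9 ligands, stood at 333, 291, 244 and 250 CPM in border macrophages and 23.9, 9.25, 14.9 and 10.5 CPM in microglia (log2 difference -4.27 ± 0.17, adjusted p = 5.4e-09). The classes did not overlap. Neutrophils, with only 5 to 101 cells a library, stood at 437, 215, 399 and 264 CPM. At 2000 UMIs, 44.5%, 36.4%, 43.1% and 38.8% of border macrophages had a Ccr1 UMI, and in granule neurons the share was 0.0134% to 0.266%. Without thinning it was 66.2%, 76.2%, 71.7% and 60.6% of border macrophages.

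**Figure D3:**
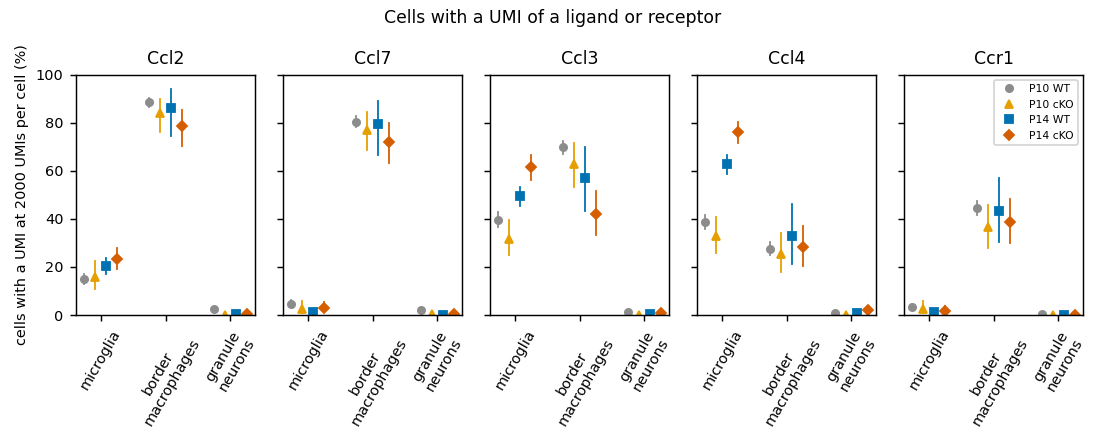
Percent of cells with at least 1 UMI of Ccl2, Ccl7, Ccl3, Ccl4 and Ccr1 in microglia, border macrophages and granule neurons after each cell was thinned to 2000 UMIs, 1 point per library with its exact 95% binomial interval. Ccl2, Ccl7 and Ccr1 were found mainly in border macrophages, and granule neurons stayed at or below 2.47%.

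Cxcr3, the receptor of Cxcl9 and Cxcl10, was found in border macrophages at 31.9, 19.1, 29.2 and 24.0 CPM and was higher there than in microglia (log2 difference -5.16 ± 0.35, adjusted p = 3.3e-07). Ccr2, the receptor of Ccl2 and Ccl7, stood at 11.2, 46.4, 0 and 0 CPM in border macrophages, the main source of those ligands. The difference from microglia was called (log2 -2.01 ± 0.61, adjusted p = 0.026), but not without P10 cKO (adjusted p = 0.28). Border macrophages were the higher class at P10 only, and microglia were higher in 2 libraries, those of P14. Ccr2 was far higher in the small classes of monocytes (762, 202, 588 and 362 CPM), dendritic cells (615, 743, 152 and 544 CPM) and T and NK cells (284, 296, 248 and 131 CPM). Ccr6, the receptor of Ccl20, was detected in microglia at 2.04, 7.30, 3.96 and 11.6 CPM and had 0 UMIs in the border macrophages of every library, which made it at least 21.7-fold higher in microglia against a floor of 3 counts. Cxcr2, the receptor of Cxcl1 and Cxcl2, belonged to neutrophils at 893, 351, 742 and 722 CPM, and stood at 2.95, 0.487, 0.317 and 1.91 CPM in microglia, its highest compared class.

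In all, 27 of the 44 genes had enough UMIs to be tested between microglia and border macrophages. Of these, 7 (25.9%) were higher in microglia, where 15.3% of all genes tested were, and 12 (44.4%) were higher in border macrophages, where 17.1% of all genes were. The median log2 difference was -0.66 for the 27 and -0.01 for all genes. Another called gene was Cxcl16, higher in microglia (49.1, 42.8, 66.7 and 92.1 CPM; log2 difference 0.98 ± 0.14, adjusted p = 2.1e-04). When each library was left out in turn, 4 of the 7, among them Cxcl16, Ccl4 and Ccr6, and 11 of the 12 (all but Ccr2) were called each time.

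The other genes of the chemokine system were a list of 16 with platelet chemokines, decoy receptors and signalling partners. Of 12 tested, 5 were higher in microglia and 3 in border macrophages. Cx3cr1, the receptor of Cx3cl1 and a standard microglial gene, stood at 2491, 2169.6, 1715 and 1788 CPM in microglia, compared with 316, 279, 222 and 239.96 CPM in border macrophages. Pf4, or Cxcl4, stood at 6179.6, 3754, 4141 and 5057 CPM in border macrophages, and the log2 difference was -7.45. Ackr3, a scavenger of Cxcl12, Gpr35, Elmo1 and Dock2 were the others higher in microglia, by 5.69, 2.10, 1.21 and 0.43 on the log2 scale. Ppbp, another platelet chemokine, and Cmklr1 were lower there (log2 differences -6.05 and -1.06).

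Levels of stress and signalling genes in the same cells are given beside the ligands, because dissociation can induce them. The summed level of 12 immediate early and dissociation genes was 14183, 9796, 14181 and 11011 CPM in microglia, compared with 14942, 8999, 6690 and 6934 CPM in border macrophages. That of 10 NF-kB response and cytokine genes was 1532, 3295, 5807 and 5762 CPM in microglia, compared with 1580, 2943, 3578 and 2831 CPM in border macrophages. Between the classes, 5 of the 12 early genes were called higher in microglia and 5 higher in border macrophages, and 5 of the 10 NF-kB genes were called higher in microglia. Their part in the chemokine levels was not tested.

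Cxcl12 was highest in fibroblasts and endothelial cells, and its receptor Cxcr4 in B cells, then endothelial cells and granule cell progenitors, so endothelial cells carried both. Cxcl12 stood at 1462, 1088, 1058 and 1063 CPM in fibroblasts and 632, 743, 1047 and 1221 CPM in endothelial cells. Fibroblasts were higher at P10, the classes were level at P14 WT and endothelial cells were higher at P14 cKO, and over the libraries the difference did not pass the test (log2 difference of endothelial cells -0.37 ± 0.20, adjusted p = 0.13). Without P14 cKO it did (-0.58, adjusted p = 0.043). The classes differed in how the transcripts were spread. At 2000 UMIs, 86.4%, 82.2%, 75.9% and 73.3% of fibroblasts but 32.1%, 39.1%, 45.6% and 43.3% of endothelial cells had a Cxcl12 UMI. The 10% of endothelial cells with most Cxcl12 held 65.8%, 62.6%, 60.03% and 64.1% of the class's Cxcl12 UMIs, and the same share of fibroblasts held 24.7%, 23.5%, 28.3% and 29.0%. Without thinning the shares of cells with a UMI were 95.9%, 95.4%, 93.7% and 83.6% of fibroblasts and 46.7%, 48.1%, 56.8% and 50.7% of endothelial cells.

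**Figure D4:**
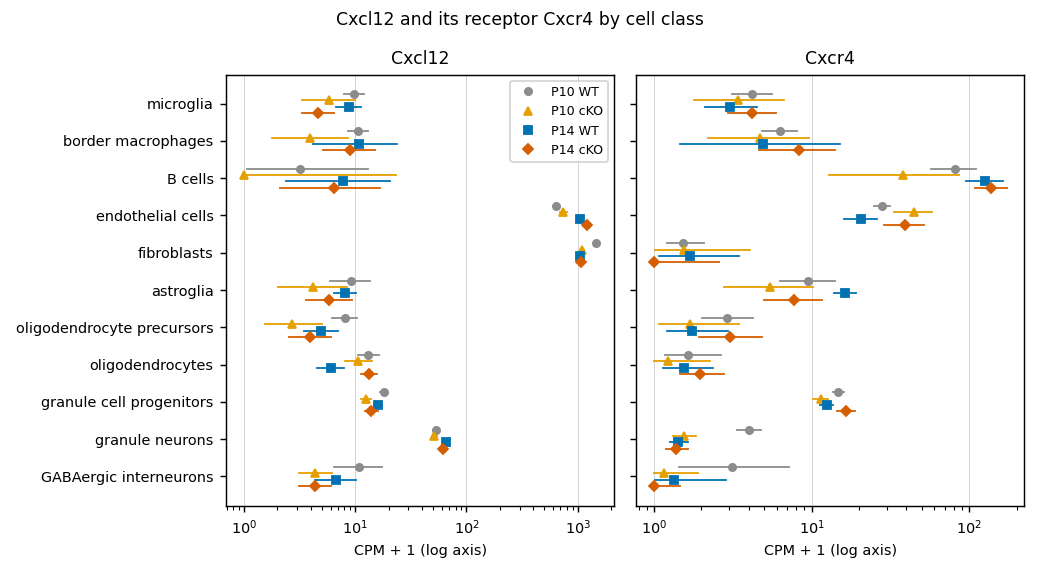
Cxcl12 and Cxcr4 levels in CPM by cell class, 1 point per library with its 95% counting interval, drawn as CPM + 1 on log axes. Cxcl12 was highest in fibroblasts and endothelial cells and lay higher in granule neurons than in progenitors, whereas Cxcr4 was higher in progenitors than in granule neurons.

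Granule neurons carried Cxcl12 too, at 52.0, 50.3, 64.4 and 59.98 CPM, against 17.02, 11.4, 15.0 and 12.99 CPM in granule cell progenitors. The values did not overlap, and the log2 difference of progenitors was -2.02 ± 0.15 (adjusted p = 3.1e-04). Of all Cxcl12 UMIs in cells that passed the filters, granule neurons held 3.72%, 28.3%, 28.9% and 29.2%, and fibroblasts 56.5%, 33.1%, 24.7% and 30.8%. The granule neuron level was 23.4%, 78.4%, 74.5% and 82.5% of the whole-library level. For Ccl2, Ccl7, Ccl3, Ccl4, Ccl12 and Ccl24, each highest in a macrophage class, the same measure lay between 1.31% and 3.85%. The measure also depends on the make-up of a library. Granule neurons were 20.3% to 51.7% of cells and fibroblasts 1.64% to 8.07%. Whether RNA of other cells added to the granule neuron level of Cxcl12 was not tested.

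Cxcr4, the receptor of Cxcl12, ran the other way along the lineage. It stood at 13.8, 10.4, 11.5 and 15.7 CPM in progenitors and 2.99, 0.541, 0.425 and 0.374 CPM in granule neurons, which did not overlap (log2 difference 3.94 ± 0.50, adjusted p = 0.0012). The share of progenitors with a Cxcr4 UMI at 2000 UMIs was only 3.15%, 2.32%, 1.75% and 3.02%, against 0.569%, 0.167%, 0.0403% and 0.0373% of granule neurons. Unthinned, the progenitor share was 17.3%, 17.3%, 13.7% and 25.3% (median depths 12858, 16026, 13080 and 19472 UMIs), against 2.45%, 0.550%, 0.251% and 0.430%. Progenitors held 37.3%, 63.0%, 39.8% and 39.0% of all Cxcr4 UMIs in cells that passed the filters. By level, B cells were highest with 80.0, 36.8, 125 and 138 CPM. Endothelial cells had 27.1, 43.5, 19.5 and 37.9 CPM and were higher than fibroblasts (log2 difference 5.83 ± 0.33, adjusted p = 1.4e-07). Astroglia had 8.55, 4.48, 15.4 and 6.70 CPM.

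Of 27 genes tested between progenitors and granule neurons, 3 (11.1%) were higher in progenitors, where 31.5% of all genes were, and 4 (14.8%) in granule neurons, where 29.5% of all genes were. Both shares were below those of all genes. Cells mixed between these 2 classes were not set aside. The summed granule neuron markers stood at 2250, 3347, 2805 and 2990 CPM in progenitors, against 5321, 7366, 6893 and 7365 CPM in granule neurons. Progenitor markers summed to 1290, 485, 421 and 275 CPM in granule neurons, against 3623, 2780, 2785 and 2702 CPM in progenitors. Among the granule neuron values P10 WT was the highest, as it was for Cxcr4. Cxcl10 (log2 difference 1.69 ± 0.37, adjusted p = 0.0092) and Cxcr6 (1.64 ± 0.44, adjusted p = 0.021) were the others higher in progenitors, at levels of at most 2.28 CPM in progenitors. Cxcr6 lost its call without P10 cKO (adjusted p = 0.077). Ccl27a (-1.97 ± 0.23, adjusted p = 9.7e-04), Ccl19 (-2.26 ± 0.54, adjusted p = 0.013) and Ccr10 (-1.04 ± 0.30, adjusted p = 0.025) were higher in granule neurons. Ccl19 lost its call without P14 WT (adjusted p = 0.14) or P14 cKO (0.051), and Ccr10 without P10 cKO (0.056) or P14 WT (0.11). Of 12 other chemokine system genes tested, Gnai2 and Arrb2 were higher in progenitors and Ackr1, Ackr3, Cmklr1 and Elmo1 in granule neurons. Ackr1, a chemokine-binding decoy of vessels and Purkinje cells, stood at 53.8, 47.0, 44.8 and 44.8 CPM in granule neurons.

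Other ligands were highest in stromal or glial classes. Cxcl16, a membrane-bound ligand of Cxcr6, stood at 95.7, 92.6, 84.9 and 82.3 CPM in fibroblasts. It was lower in endothelial cells (log2 difference -4.07 ± 0.23, adjusted p = 1.6e-07). Cxcl14 was the astroglial ligand, with 307, 221, 246 and 240 CPM, against 30.9, 21.6, 19.2 and 20.0 CPM in oligodendrocyte precursors. Ccl19, which guides lymphocytes and dendritic cells through Ccr7, stood at 13.2, 17.8, 26.6 and 38.8 CPM in fibroblasts and 20.9, 33.6, 10.0 and 18.5 CPM in endothelial cells. Endothelial cells were higher in both P10 libraries and fibroblasts in both P14 libraries, and the difference did not pass the test (log2 -0.09 ± 0.35, adjusted p = 0.84). Ccl21a, a lymphatic and lymph node ligand of the same receptor, had 8.95, 12.3, 6.09 and 3.22 CPM in endothelial cells and 0 UMIs in fibroblasts, at least 54.7-fold higher against a floor of 3 counts. Cx3cl1, the fractalkine that binds Cx3cr1, stood at 10.4, 11.5, 18.6 and 21.0 CPM in endothelial cells and 12.3, 11.6, 9.06 and 9.004 CPM in oligodendrocyte precursors.

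Of 18 genes tested between endothelial cells and fibroblasts, 3 (16.7%) were higher in endothelial cells (27.8% of all genes) and 7 (38.9%) in fibroblasts (29.2% of all genes). The endothelial ones were Cxcr4, Ccl21a and Cx3cl1 (log2 difference 1.18 ± 0.23, adjusted p = 0.0013). The fibroblast ones were Cxcl16, Ccl11, at least 27.0-fold higher against a floor of 3 counts, Cxcl14 (-3.71 ± 0.45, adjusted p = 5.1e-05), Cxcl1 (-4.38 ± 0.27, adjusted p = 2.9e-07), Ccl2 (-2.41 ± 0.53, adjusted p = 0.0031), Ccl7 (-3.09 ± 0.45, adjusted p = 1.9e-04) and Ccr9. When each library was left out in turn, 6 of these 7 were called each time, and Ccl11 had too few UMIs to be tested without P14 WT. Ccr9, the receptor of Ccl25, stood at 19.2, 42.7, 27.6 and 28.8 CPM in fibroblasts (log2 difference -5.18 ± 0.29, adjusted p = 1.5e-07). Its gene overlaps others on both strands, and the strand used in counting is not given in the sources used here, so its reads may belong to a neighbour. Of 10 other chemokine system genes, 5 were higher in endothelial cells: Ccrl2, Elmo1, Gnai2 and the decoy receptors Ackr2 (log2 difference 6.16) and Ackr3 (1.08). Ackr3 stood at 37.0, 55.8, 91.9 and 92.7 CPM in endothelial cells.

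Neurons carried a small set of mucosal and skin chemokines. Ccl25, known from thymus and gut, stood at 38.0, 48.7, 49.6 and 39.6 CPM in GABAergic interneurons and was found in every class compared. Ccl27a, a skin ligand of Ccr10, stood at 74.6, 43.7, 44.3 and 46.5 CPM in interneurons and 41.6, 36.4, 32.5 and 36.9 CPM in granule neurons. Ccl28, a mucosal ligand of Ccr10, reached 0, 0.807, 3.02 and 2.30 CPM in interneurons. Ccr10 itself had its highest mean in granule neurons, at 1.68, 1.47, 1.82 and 2.31 CPM, but they were the highest compared class in only 1 library. Granule neuron levels of Ccl25 were 106% to 130% and those of Ccl27a 161% to 222% of the whole-library levels. Ccl25, Ccl27a and Ccr10 overlap Elavl1, Il11ra1 and Cntnap1 on the other strand, so with the counting strand unknown these values are uncertain, and Ccl27a, Ccl19 and Ccl21a also have near-identical copies.

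Among the 11 compared classes, receptors of lymphocyte homing were highest in B cells, a class of 21 to 97 cells a library. Ccr7, the receptor of Ccl19 and Ccl21a, stood at 210, 140, 242 and 205 CPM. Cxcr5, the receptor of Cxcl13, stood at 49.7, 279, 105 and 97.8 CPM, highest in P10 cKO, where the class had 21 cells. Ccr6 had 12.97, 7.35, 38.1 and 5.43 CPM there. Cxcr6, the receptor of Cxcl16, had 0, 14.7, 4.48 and 5.43 CPM in B cells and 90.8, 143, 184 and 185 CPM in T and NK cells. In B cells 1 UMI stood for 2.16, 7.35, 2.24 and 1.81 CPM. Cxcr6 there thus rested on few UMIs, as did Ccr6 in P10 cKO and P14 cKO. The 3 remaining ligands rested on few cells: Cxcl17 in B cells was 0, 7.35, 0 and 0 CPM (1 UMI), Ccl17 was 0, 0, 0 and 25.4 CPM, and Ccl1 in astroglia was 0, 0, 0.116 and 0.744 CPM.

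Genotype could be tested only over both ages together, with age as a term and 1 residual degree of freedom. Of 148 pairs of a gene and a class, 0 were called by edgeR at an adjusted p of 0.05, and 0 of 133990 tests over all genes (a background of 0%). At an unadjusted p under 0.05 there were 7 pairs: Cxcl9 and Ccr6 in microglia, Cxcl1, Ccr2 and Ccl8 in border macrophages, and Cxcl1 and Ccl7 in fibroblasts. DESeq2 called 0 of the pairs and 147 of all tests. What follows at each age therefore describes 2 libraries, with no test.

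At P14, where both libraries came from the same software version, 139 pairs had at least 20 UMIs. Of these, 39 were at least 2-fold higher in cKO and 11 at least 2-fold lower, where 3.93% and 3.26% of all genes were. Most of the higher pairs came from genes highest in a macrophage class, read outside the macrophage classes. Among genes highest in a macrophage class but read in other classes, 29 of 38 pairs were higher and 1 lower. Within microglia and border macrophages it was 5 higher and 5 lower of 38, and for the other genes in the other classes 5 and 5 of 63. Among the 11 compared classes, 22 genes were highest in a macrophage class, including Cxcl3, Ccl26 and Ccr3 with under 100 UMIs in classed cells. Some of the 22, such as Cxcr2 and Ccr2, were higher in classes too small to be compared. Over the whole libraries 20 of the 22 were higher in P14 cKO, all but Cxcl1 and Ccl5. Ccl2 was 36.6 CPM over all cells of P14 WT and 120 CPM over those of P14 cKO, and Ccl4 173 and 344 CPM, while border macrophages were 0.390% and 2.25% of cells. With each cell thinned to 2000 UMIs, only 62 pairs kept 20 UMIs, of which 8 were higher (3.47% of all genes) and 10 lower (4.44%). Of the 39 higher pairs, 9 could still be read and 8 of those were still higher. The part of free RNA in these ratios was not tested.

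**Figure D5:**
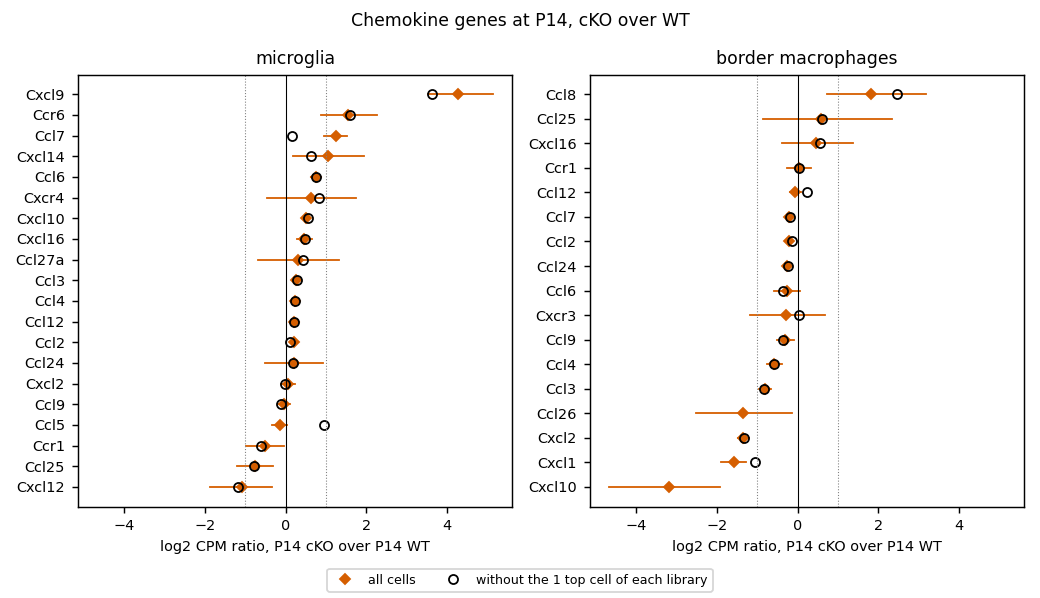
Log2 ratio of cKO over WT at P14 for chemokine genes in microglia and in border macrophages, with exact 95% intervals for counting error and open marks for the ratio without the cell that holds most UMIs. Most genes lay within 2-fold, Ccr6 in microglia and Ccl8 in border macrophages lay higher, and Cxcl1 and Cxcl2 in border macrophages lower, with or without that cell.

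In the microglia of P14, 4 of 21 genes were at least 2-fold higher in cKO and 1 lower, where 2.8% and 4.48% of all genes were. Cxcl9 was higher by 4.28 on the log2 scale (95% interval 3.54 to 5.14), from 6 cells against 1. Ccr6 was higher by 1.55 (0.88 to 2.27), from 50 cells against 22, and by 1.59 without the top cell of each library. At P10 its ratio was 1.84 (0.75 to 2.91). Shares of microglia with a Ccr6 UMI at 2000 UMIs were 0.826%, 1.76%, 1.26% and 2.22%, from only 9, 3, 8 and 8 cells. Ccl7 (1.24) and Cxcl14 (1.05) fell within 2-fold without their top cell, at 0.15 and 0.62. Cxcl12 was lower (-1.09), on 23 UMIs against 49. Abundant microglial genes stayed within 2-fold: the ratio was 0.23 for Ccl4, 0.26 for Ccl3, 0.22 for Ccl12 and 0.49 for Cxcl10.

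In the border macrophages of P14, 1 of 17 genes was at least 2-fold higher in cKO and 4 lower, where 5.41% and 3.11% of all genes were. The WT library held only 60 such cells. Cxcl2 was lower (log2 ratio -1.35, interval -1.48 to -1.21; -1.34 without the top cells). Cxcl1 had a ratio of -1.58 (-1.89 to -1.27), or -1.06 without the top cells, since 77 of its 175 UMIs in WT came from 1 cell. At P10 the Cxcl1 ratio was -3.12. Ccl8 went the other way at 1.83 (0.72 to 3.20), from 11 cells against 3, and at P10 at 1.81, from 24 cells against 80 in a WT class of 1295 cells. Cxcl10 (-3.20) and Ccl26 (-1.34) rested on 3 cells against 4 and on 15 UMIs against 13. Ccl2 and Ccl7 both had a ratio of -0.22.

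Interferon response genes were higher in the cKO libraries beside these ligands. At P14, 13 of 14 such genes with 20 UMIs were at least 2-fold higher in cKO microglia, where 2.8% of all genes were. In border macrophages it was 9 of 12, against 5.41% of all genes, with 0 lower in either class. At P10 it was 9 of 10 and 11 of 13, with 0 lower, where 22% and 21.4% of all genes were higher. Software version and genotype cannot be told apart at P10. Endothelial cells had 5 of 14 higher at P14 and 14 of 14 at P10, and fibroblasts 11 of 14 and 7 of 13. For all genes it was 171 of 10770 and 2192 of 11786 in endothelial cells, and 265 of 11880 and 2654 of 13293 in fibroblasts. The summed level of the interferon genes was 175, 453, 529 and 1663 CPM in microglia, compared with 1077, 2554, 1880 and 3080 CPM in border macrophages. Rsad2 stood at 12.98 and 130.5 CPM in the WT and cKO P14 libraries of microglia, and Isg15 at 41.5 and 109 CPM. For the NF-kB list the counts at P14 were 0 of 10 higher in microglia, and 0 of 8 higher and 1 lower in border macrophages. At P10 they were 4 of 8 and 3 of 9 higher, with 0 lower, beside the same 22% and 21.4% of all genes. Fibroblasts had 1 of 7 NF-kB genes higher and 2 lower at P14, and 4 of 7 higher and 0 lower at P10. Endothelial cells had 0 of 5 higher and 0 lower at each age. Whether the interferon genes and Cxcl9 and Cxcl10 share a source was not tested.

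At P10, 162 pairs could be read, 13 at least 2-fold higher in cKO and 74 lower, where 21.7% and 5.95% of all genes were. Of the 64 pairs of a macrophage gene in another class, 54 were lower and 3 higher, and whole-library Ccl2 was 302 CPM in WT and 47.4 CPM in cKO. In the macrophage classes 5 of 44 pairs were higher and 9 lower. Microglia had 1 of 22 higher and 7 lower (22% and 4.18% of all genes), and border macrophages 4 of 22 higher and 2 lower (21.4% and 4.58%). Software version, the share of border macrophages and genotype cannot be told apart in these values.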

How the data were processed

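Droplet single-cell libraries of whole cerebella were read from the deposited matrices, which hold counts, the UMIs per gene and barcode, with no normalization per the file headers. Per the submitters' processing notes the build was mm10, with Seurat 4.1.3 and Cell Ranger 3.0.2 as tools, while the headers show Cell Ranger versions 5.0.0, 7.0.1 and 7.1.0. The strand of counting and the treatment of intronic reads are not given in the sources used here.

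Barcodes with at least 500 genes and at most 20% mitochondrial UMIs were kept. A marker counted as detected if its share of a cell's UMIs exceeded its share of the whole library. A cell was given the class with the largest fraction of its markers detected, if at least 3 were. It was set aside if a class of another lineage reached more than 0.5 of that fraction. Microglia and border macrophages counted as the same lineage, as did progenitors and granule neurons, and oligodendrocyte precursors and oligodendrocytes. Cells mixed within these pairs were therefore kept. Cells of 2 lineages and of no class were left out, and no doublet caller was run. UMIs were summed per class and library.

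Pairs of classes were compared with edgeR 4.0.16 (R 4.3.3; TMM, filterByExpr at a minimum count of 10, quasi-likelihood F test, Benjamini-Hochberg adjusted p of 0.05 over all genes), with the library as a block because both classes came from the same animals. The SE of a log2 difference was taken as its absolute value divided by the square root of the F statistic of the same test. Genotype was fitted per class with age as a term. With 1 library per group, no test of genotype was made at a single age: log2 ratios were read for genes with at least 20 UMIs in the 2 libraries. DESeq2 1.42.0, another normalization, other filters and gates and thinning to 2000 UMIs were alternatives. The 3 comparisons of classes and the genotype fit in microglia were tested on simulated data, and the other genotype fits were not. Other steps used pandas 2.3.3, SciPy 1.17.1 and NumPy 2.4.6 under Python 3.11.15, with matplotlib 3.10.9 for plots.

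All 44 genes enter the counts, and 1 of them is not reported here by name or value. Values in every library are given for genes with at least 100 UMIs in classed cells, in their highest compared class, and for any gene called by a test, and the others are given by counts. The genes and lists were chosen with earlier results of these data known. P-values measure the spread between libraries only. In class sums, fewer positive cells and less RNA per cell cannot be told apart, so shares of cells are given beside levels.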

Additional observations from a re-analysis of the deposited data

Results flagged for a closer look

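In 4 pairs of a gene and one of its 3 highest classes, the cKO library was at least 2-fold lower than WT at one age and at least 2-fold higher at the other. None of these differences between ages was tested, since each ratio compares 1 library with 1 library, and the P10 pair also differs in software version. Ccl4 in fibroblasts had a log2 ratio of -2.02 at P10 and 4.44 at P14, where 138 of the 155 UMIs of P14 cKO came from 1 cell, and without the top cells the P14 ratio was 1.72. Ccl3 in fibroblasts had -3.38 at P10 and 4.39 at P14, with 31 of 41 UMIs of P14 cKO in 1 cell. Ccl7 in microglia had -2.28 at P10 and 1.24 at P14, with 204 of 339 UMIs of P14 cKO in 1 cell, and 0.15 without the top cells. Cxcl10 in border macrophages had 2.13 at P10 and -3.20 at P14, where it was read from 3 cells in cKO and 4 in WT. Another 22 pairs, outside a gene's 3 highest classes, differed in direction as well, and in all 22 the ratio was below 0 at P10 and above 0 at P14.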

How the results depend on the processing

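No paired analysis was possible because each genotype had 1 library per age and the libraries share no replicate pairing. Leaving out a library was not run for genotype, which would leave no residual degrees of freedom. In the comparisons of classes the library was the block. With no replicate block, 2 genes in place of 7 were called higher in microglia, Ccl4 among them, and 1 in place of 3 in progenitors (Cxcr4). With 1 library left out at a time, 4 to 7 genes were higher in microglia, lowest without P14 cKO, and 2 to 4 in granule neurons, lowest without P14 WT. With no filter on low counts, 11 of 38 genes (28.9%) in place of 7 of 18 were higher in fibroblasts than in endothelial cells, where 20.8% of all genes were, and 4 of 382 pairs (1.05%) in place of 0 were called for genotype, where 0.314% of all tests were. Thinning to 2000 UMIs left 62 pairs to read at P14 in place of 139, 8 of them higher in place of 39, and 78 at P10 in place of 162, with 7 higher in place of 13 and 24 lower in place of 74. Of the 74 lower pairs at P10, 24 could still be read and 21 were still lower. A minimum of 50 UMIs gave 24 higher and 6 lower at P14 (11 lower with 20 UMIs), and 6 higher and 43 lower at P10. Higher pairs at P10 came to 8 with 4 markers required and to 8 without the cell with most UMIs, an alternative chosen after seeing the data. P10 ratios that changed sign were Ccr2 in border macrophages (-2.12), Ccl9 (-1.70) and Ccl6 (-0.76) in fibroblasts with 4 markers, and Ccl2 in fibroblasts when thinned (0.34); the cause was not tested. Of the other comparisons of single genes under an alternative, 1235 kept their direction and side of the threshold, 39 moved, 20 lost and 10 gained a call. Ccr6, Ccl8, Ccl26, Cxcl9 and Ccl5 rested on few cells, which limits their precision.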

Other observations

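Some chemokine transcripts lay in cells outside the compared classes. In P14 cKO, 1 cell without a class held 220 UMIs of Ccl1, a T cell product that binds Ccr8, and it was the only one of 212 such cells with any. In the 9 dendritic cells of P14 WT, 3 cells held 350 UMIs of Ccl5, 271 of them in 1 cell, 3 held 95 UMIs of Ccr7 and 4 held 22 UMIs of Ccl22, a dendritic cell ligand of Ccr4. In 17 monocytes of P14 cKO, 1 cell held 33 UMIs of Cxcl9.

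Ccl19 in granule neurons was found almost only at P14, with 3, 1, 136 and 89 UMIs, or 0.120, 0.0301, 2.41 and 2.78 CPM. Its level there was 82.2% and 96.1% of the whole-library level at P14, and 3.51% and 2.80% at P10. The gene overlaps 4930578G10Rik on the other strand and has a near-identical copy, so the source of these UMIs is uncertain, and the difference between ages was not tested.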
